A study of Homo sapiens with 6 samples.

Results

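The 43 genes described here encode the machinery that copies DNA in S phase, from the marking of replication origins to the supply of deoxynucleotides. They were chosen by name, as a list of replication genes, with earlier results of these data known. Every probe set that the array annotation assigned to exactly 1 of these symbols was taken. All 43 symbols were found, on 66 of 22215 probe sets that are not controls, and 64 of the 66 were bright enough to test, so that each of the 43 genes had at least 1 tested probe set among 7938 tested genes. Measurements came from A-498, an established human renal cell carcinoma line, grown as monolayers in RPMI-1640 with fetal calf serum. The untreated group had 3 cultures without zebularine and the treated group had 3 cultures with 1000 µM zebularine, a cytidine analogue that inhibits DNA methyltransferases, both sampled at 120 h. Both groups carry the replicate numbers 1 to 3. Each number is read here as 1 experiment with 1 untreated and 1 treated culture, on 1 array each. A difference can then be read within every experiment, and the results describe 1 cell line only.

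Origins are prepared in G1, when the origin recognition complex, CDC6 and CDT1 load the ring-shaped MCM helicase onto DNA, and they are fired in S phase, when the CDC7 kinase, MCM10, CDC45 and the GINS complex turn that helicase on. DNA polymerase alpha with primase then starts each strand, the RFC clamp loader places the PCNA ring, and polymerases delta and epsilon extend the strands. Many of these genes are transcribed under E2F factors, which the retinoblastoma protein restrains, so in growing cells they are known to be transcribed at the G1/S border.

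Promoter sequences are shown for 6 members, picked with the direction of their differences known. The 6 illustrate the motif and cannot show how far it goes with a direction. PCNA, ORC6 and RFC3 had higher mean signals on the treated arrays, and MCM3, MCM6 and MCM7 lower ones. The signs of MCM3, MCM6 and MCM7 each turned in some runs that left out arrays, and MCM6 was higher in 2 of 3 experiments. Each sequence is the 190 bases before a RefSeq transcript start in GRCh38.p14, written 5′ to 3′ on the gene's strand. Capitals mark any match to the E2F motifs TTTCCCGC, TTTGGCGC or TTTCGCGC on either strand. PCNA had 2 annotated starts and MCM7 had 3, and for these genes the stretch with the most matches was picked. The stretches lie at chr20:5126623-5126812 (PCNA, minus strand), chr16:46689469-46689658 (ORC6, plus strand), chr13:33817959-33818148 (RFC3, plus strand), chr6:52284743-52284932 (MCM3, minus strand), chr2:135876444-135876633 (MCM6, minus strand) and chr7:100101398-100101587 (MCM7, minus strand).
PCNA: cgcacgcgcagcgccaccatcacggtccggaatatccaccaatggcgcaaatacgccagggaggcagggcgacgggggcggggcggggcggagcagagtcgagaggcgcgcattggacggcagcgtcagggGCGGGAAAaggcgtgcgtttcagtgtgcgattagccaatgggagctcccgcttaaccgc
RFC3: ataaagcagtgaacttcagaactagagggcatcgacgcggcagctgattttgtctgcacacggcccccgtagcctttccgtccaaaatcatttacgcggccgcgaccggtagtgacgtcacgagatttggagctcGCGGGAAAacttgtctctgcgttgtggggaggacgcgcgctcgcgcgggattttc
ORC6: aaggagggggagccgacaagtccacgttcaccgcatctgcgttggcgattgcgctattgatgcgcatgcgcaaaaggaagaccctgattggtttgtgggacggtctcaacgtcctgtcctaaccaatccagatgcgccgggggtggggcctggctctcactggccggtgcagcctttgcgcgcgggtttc
MCM3: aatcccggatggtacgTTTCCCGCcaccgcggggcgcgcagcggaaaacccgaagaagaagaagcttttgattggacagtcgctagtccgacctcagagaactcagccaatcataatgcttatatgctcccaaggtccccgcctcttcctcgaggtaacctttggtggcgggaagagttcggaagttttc
MCM6: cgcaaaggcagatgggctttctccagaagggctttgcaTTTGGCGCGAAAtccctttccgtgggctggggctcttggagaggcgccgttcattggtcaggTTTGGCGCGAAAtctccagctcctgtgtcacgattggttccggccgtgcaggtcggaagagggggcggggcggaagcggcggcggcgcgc
MCM7: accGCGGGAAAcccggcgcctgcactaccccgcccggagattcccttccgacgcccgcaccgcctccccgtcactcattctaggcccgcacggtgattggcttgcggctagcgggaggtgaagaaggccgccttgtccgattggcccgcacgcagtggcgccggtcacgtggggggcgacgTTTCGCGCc
PCNA and RFC3 carry the same 8 letters, TTTCCCGC read on the opposite strand, at 59 to 52 and at 55 to 48 bases before the start. In MCM6 the motifs TTTGGCGC and TTTCGCGC overlap on opposite strands, at 2 places, and MCM7 has 1 match close to the start and 1 far upstream. ORC6 has no match to these letters in the window. MCM2, lower in every experiment, has none over the 250 bases searched and is not shown.

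Over the 250 bases before any annotated start of a gene, 16 of 38 member genes in the RefSeq promoter table, 42.1%, held at least 1 of the 3 motifs. The shares were 319 of 6555 other tested genes (4.87%) and 777 of 27305 genes of the whole table (2.85%). The other 5 members are MCM4, MCM5, CCNE2, RPA2 and RPA3. The members with a match had mean log2 differences after zebularine on both sides of 0, 10 above and 6 below, with a median of 0.092. Of the 22 without a match 17 were above 0 and 5 below, with a median of 0.19. A match to these letters is a description of the sequence and not evidence of a bound factor.

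No replication gene passed the test across all probe sets in the comparison of treated with untreated arrays. Limma with Benjamini-Hochberg adjustment called 0 of the 43 members and 0 of their 64 tested probe sets, where it called 0.642% of all tested genes and 0.620% of all tested probe sets. At an unadjusted p under 0.05 it found 3 members higher, 6.98% of them against 6.25% of all tested genes, and 0 lower, against 6.84%. The arrays of 1 experiment vary together. Fitted with experiments as blocks, limma called 2 members, PCNA and ORC6, both higher, which is 4.65% of the members where 4.45% of all tested genes were called and 2.17% were called higher. By probe sets it called 2 of 64, where 4.22% of all tested probe sets were called. At an unadjusted p under 0.05 the blocked test found 8 members higher (18.6%, against 9.96% of all tested genes) and 0 lower (against 11.3%). The blocked calls depend on single experiments: 0 members were called without experiment 1 (where 1.49% of all tested genes were called), 4 without experiment 2 (PCNA, ORC6, MCM10 and RFC3, all higher, where 8.11% of all tested genes were called and 3.45% called higher) and 1, PCNA, without experiment 3 (where 2.65% were, and 1.31% higher). The count of called members thus moved with that of the whole array.

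The members lay slightly above the rest of the array. Their median log2 difference, treated minus untreated on the log2(signal + 16.34) scale, was 0.20, while that of all tested genes was -0.0089, and 31 of 43 members (72.1%) had a mean difference above 0 against 49.3% of all tested genes. By experiment the members' median was 0.24, 0.014 and 0.36, with 25, 22 and 33 of 43 members higher on the treated array. In experiment 2 the members were split almost evenly. The median was 0.072 without untreated 1, 0.36 without zebularine 1, 0.37 without untreated 2 and 0.087 without experiment 3. The treated array was higher in all 3 experiments for 14 members (32.6%, against 21.5% of all tested genes) and lower in all 3 for 5 members (11.6%, against 22.0%). For 5 members, ORC6, MCM10, CDC7, PCNA and RRM1, all 3 treated signals lay above all 3 untreated ones (11.6%, against 9.32% of all tested genes), and for 1 member, MCM5, all lay below (against 8.83%).

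**Figure D1:**
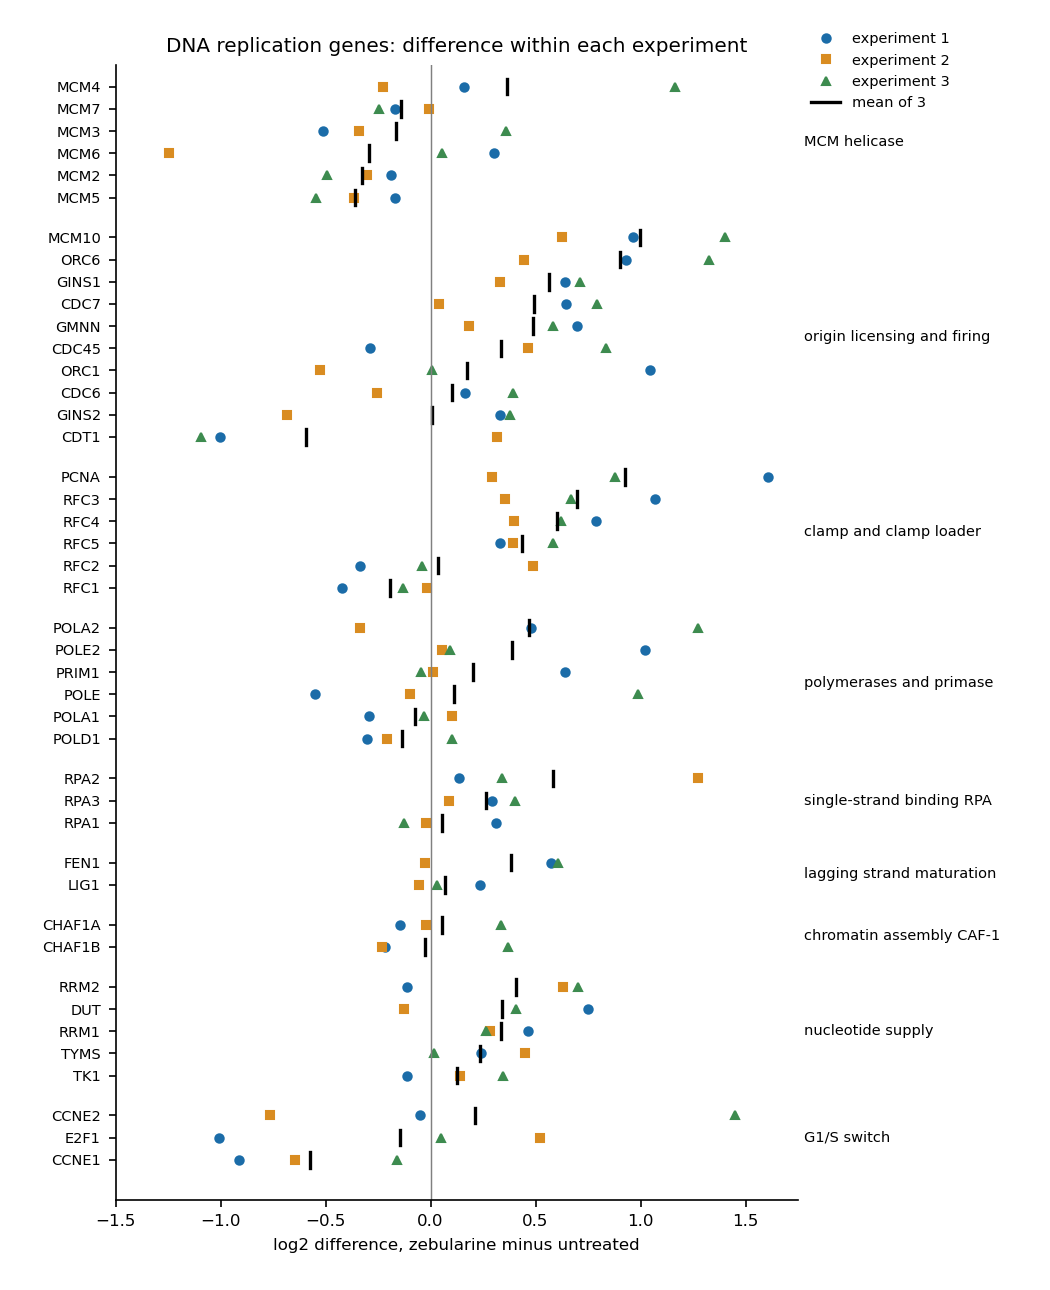
Log2 difference (zebularine minus untreated, x axis) of each of the 43 replication genes in experiments 1, 2 and 3 (coloured symbols) with the mean of the 3 (black bar), grouped by complex. MCM10, ORC6 and PCNA have the highest means, 1.00, 0.90 and 0.93, and 5 of 6 MCM helicase genes have a mean below 0.

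Arrays of experiment 3 differed from the others in their brightest signals, and the part of this in the results was not tested. The highest signals were 31176.4 and 28720.5, against 66289.9 to 71174.1 on the other 4 arrays, and the median of 18 spike-in controls was 1239.2 and 1456.75 against 3551.1 to 4103.45. GAPDH, whose 3' over 5' signal tracks RNA integrity, had ratios from 1.01 to 1.52, with the treated array the lower in each experiment. The same ratio for ACTB was 3.10 untreated and 5.25 treated in experiment 1, where PCNA differed most, 2.38 and 2.06 in experiment 2, and 1.71 and 1.49 in experiment 3. The part of RNA integrity in the results was not tested. Each value comes from bulk RNA, so that a change in the share of cells in S phase and a change in RNA per cell cannot be told apart. Of 10 renal epithelial and carcinoma markers 7 were tested, LHX1 had no tested probe set, and 6 of the 7 had a mean difference below 0. VIM, KRT8 and KRT18 had signals of at least 19723, 3378.6 and 12161.1 on every array. CDH6, a kidney cadherin, was the marker that limma called: its brightest probe set fell from 1407.4, 2209 and 584.4 to 174.5, 102.8 and 209.1, by 2.85 on the log2 scale (adjusted p = 0.0206 in limma without the block and 0.00397 with it). PAX8, a kidney transcription factor, had means below 0 at 6 of 8 tested probe sets, with -0.44 ± 0.26 at the brightest (limma, adjusted p = 0.53). The part of these markers in the results was not tested. Of 9 markers of blood and endothelial cells 8 had probe sets, 0 of 14 such probe sets were bright enough to test, and their summed signal was 364.1 to 590 on untreated and 376.7 to 682.3 on treated arrays.

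The MCM2 to MCM7 genes encode the hexameric helicase that unwinds DNA at the fork, and 5 of these 6 genes had a mean difference below 0, none of them called. The group's median was -0.23, and it was -0.17, -0.32 and -0.096 in experiments 1, 2 and 3. MCM6, the member of this group with the brightest probe set, had untreated signals of 1726.5, 4913.2 and 3250.5 and treated signals of 2136, 2065.9 and 3376.9 in experiments 1, 2 and 3. Experiment 2 set its mean: the difference was -1.24 there and 0.30 and 0.055 in the others, and the groups overlapped. Its log2 difference was -0.29 ± 0.35 (SE, n = 3 a group; limma, adjusted p = 0.78).

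MCM5, chosen after its values were seen, was the member without overlap on the lower side. Its signals were 844.5, 1068.9 and 1165.5 in untreated cultures and 749.6, 826.8 and 792.9 in treated ones, so every treated value lay under every untreated value. The log2 difference was -0.36 ± 0.24 (adjusted p = 0.585 in limma without the block and 0.368 with it). The same order was seen at a further probe set of MCM5, with untreated signals of 300.3, 376.9 and 361.7 and treated signals of 298, 255 and 264.3. MCM2 and MCM7 were also lower after treatment in every experiment, with differences of -0.19, -0.30 and -0.49 for MCM2 and of -0.17, -0.0052 and -0.25 for MCM7. MCM3 differed by -0.51, -0.34 and 0.36 in experiments 1, 2 and 3.

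MCM4 was the exception among the helicase genes, at a mean difference of 0.37 ± 0.31 (limma, adjusted p = 0.667). Its 4 probe sets all had means above 0, at 0.37, 0.78, 0.23 and 0.15. The probe set at 0.78, shown after its values were seen, had untreated signals of 418.9, 709.6 and 391.2 and treated signals of 766.8, 822.7 and 977.2, without overlap (adjusted p = 0.276 in limma without the block and 0.104 with it), while the brightest had 672.9, 1110.6 and 602.6 against 754.1, 947.9 and 1369.6. The size of the MCM4 difference therefore depended on which of its probe sets was read.

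Genes of origin licensing and firing mostly had means above 0. Their median over 10 genes was 0.41, with 9 of 10 above 0, and it was 0.64, 0.25 and 0.65 in experiments 1, 2 and 3. ORC6, the smallest subunit of the origin recognition complex, had untreated signals of 838.5, 1141.1 and 742.7 and treated signals of 1614.6, 1559.5 and 1886.7. All 3 treated values lay above all untreated ones. The mean went from 907 ± 208 to 1687 ± 175 (SD, n = 3), a log2 difference of 0.90 ± 0.25, or 1.87-fold (adjusted p = 0.159 in limma without the block and 0.045 with it). ORC6 was called in the blocked test only, and its 1 probe set is of the _x_ type, which can bind transcripts of other genes. ORC1, the largest subunit of that complex, differed by 1.05, -0.53 and 0.0048.

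MCM10, a scaffold that is needed to start the helicase but is not part of the MCM ring, had untreated signals of 134.2, 264.6 and 175.3 and treated signals of 277.4, 416.7 and 490.6. The groups did not overlap. Its log2 difference of 1.00 ± 0.33, or 2.00-fold, was the highest mean among the 43 members (adjusted p = 0.241 in limma without the block and 0.0586 with it). GINS1, a subunit of the active helicase, had untreated signals of 711.7, 804.2 and 1053 and treated signals of 1119.7, 1016.6 and 1736.8. Each treated array was above its own untreated array, but the untreated value of experiment 3 lay above the treated value of experiment 2. The difference was 0.56 ± 0.28 (adjusted p = 0.434 in limma without the block and 0.153 with it). GINS2, a partner subunit, differed by 0.33, -0.69 and 0.38 and by 0.0082 on average.

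CDT1 and its inhibitor geminin had means on opposite sides of 0. CDT1, which loads the helicase, had untreated signals of 290.5, 166.1 and 277.7 and treated signals of 136.6, 210.6 and 121.5, so it was lower in experiments 1 and 3 and higher in experiment 2. Its difference was -0.59 ± 0.35 (adjusted p = 0.524 in limma without the block and 0.35 with it). GMNN, which encodes geminin, went from 660.2, 1249.9 and 1000.2 to 1080.4, 1422.4 and 1504.8, higher in each experiment, at 0.49 ± 0.28 (adjusted p = 0.517 in limma without the block and 0.215 with it). These values were chosen after they were seen. CDC7, the kinase that triggers firing, was higher by 0.65, 0.039 and 0.79 without overlap between the groups, CDC45 differed by -0.29, 0.46 and 0.84, and CDC6 by 0.16, -0.25 and 0.39.

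The sliding clamp and its loader had the highest median of the larger groups, 0.52 over 6 genes, and medians of 0.56, 0.37 and 0.60 in experiments 1, 2 and 3. PCNA, the clamp that holds polymerases on DNA, had untreated signals of 1410.2, 4106.3 and 2733.7 and treated signals of 4336, 5042.5 and 5034.5. The treated values lay close together and above all untreated ones, while the untreated values were far apart. The mean went from 2750 ± 1348 to 4804 ± 406 (SD, n = 3). The log2 difference of 0.93 ± 0.34, or 1.90-fold, was the mean of 1.61, 0.30 and 0.88 for experiments 1, 2 and 3 (adjusted p = 0.272 in limma without the block and 0.0416 with it). PCNA was called in the blocked test only, and without untreated 1 its difference was 0.51.

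The RFC genes encode the subunits of the 5-part clamp loader, and the small subunits RFC3, RFC4 and RFC5 differed from the large subunit RFC1 in sign. RFC3 had untreated signals of 429.8, 1030.6 and 864.5 and treated signals of 921.1, 1320.6 and 1385.6. It was higher within each experiment, but the treated value of experiment 1 lay under the untreated value of experiment 2, and it differed by 0.70 ± 0.33 (adjusted p = 0.405 in limma without the block and 0.103 with it). Without untreated 1 the RFC3 difference was 0.33. Its further probe set differed by 0.76 ± 0.35 (adjusted p = 0.402 in limma without the block and 0.0936 with it). RFC4 went from 1050.9, 1804.7 and 969.2 to 1824.7, 2379.7 and 1501, a difference of 0.60 ± 0.29 (adjusted p = 0.423 in limma without the block and 0.111 with it). RFC5 was higher in every experiment too, by 0.33, 0.39 and 0.58, and its further probe sets had means of 0.14 and 0.27. RFC1 differed by -0.42, -0.019 and -0.13, and its further tested probe set had a mean of 0.069. RFC2 stood at 0.038, and its further probe set was higher by 0.52, 0.016 and 0.15 in experiments 1, 2 and 3.

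**Figure D2:**
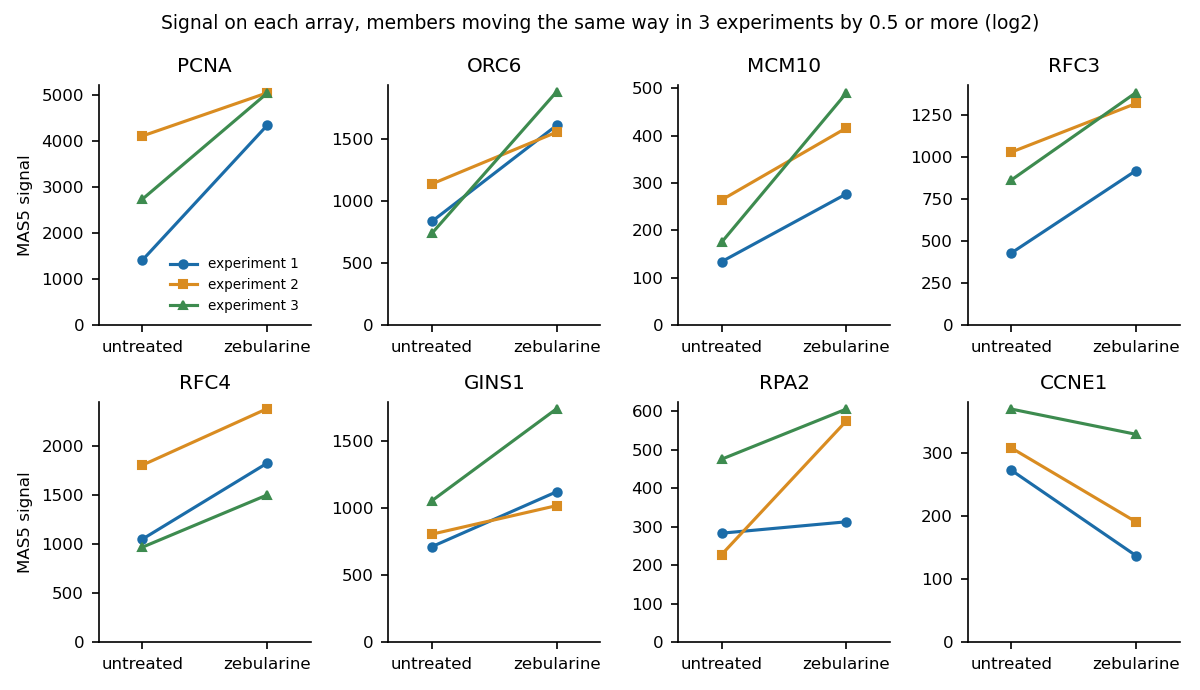
MAS5 signal (y axis, linear, from 0) on the untreated and the treated array of experiments 1, 2 and 3, joined by lines, for the 8 members that moved the same way in all 3 experiments with a mean log2 difference of at least 0.5 in size. PCNA, ORC6 and MCM10 show no overlap between groups, RPA2 has its main difference in experiment 2, and CCNE1 is the member that was lower.

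The distance between the clamp group and the helicase group was alike in the 3 experiments. The median of the 6 clamp and loader genes minus the median of the 6 MCM helicase genes was 0.73, 0.69 and 0.70 in experiments 1, 2 and 3. These groups were set side by side after their values were seen, and the difference between them was not tested. The values rest on 6 genes a group from the same arrays.

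**Figure D3:**
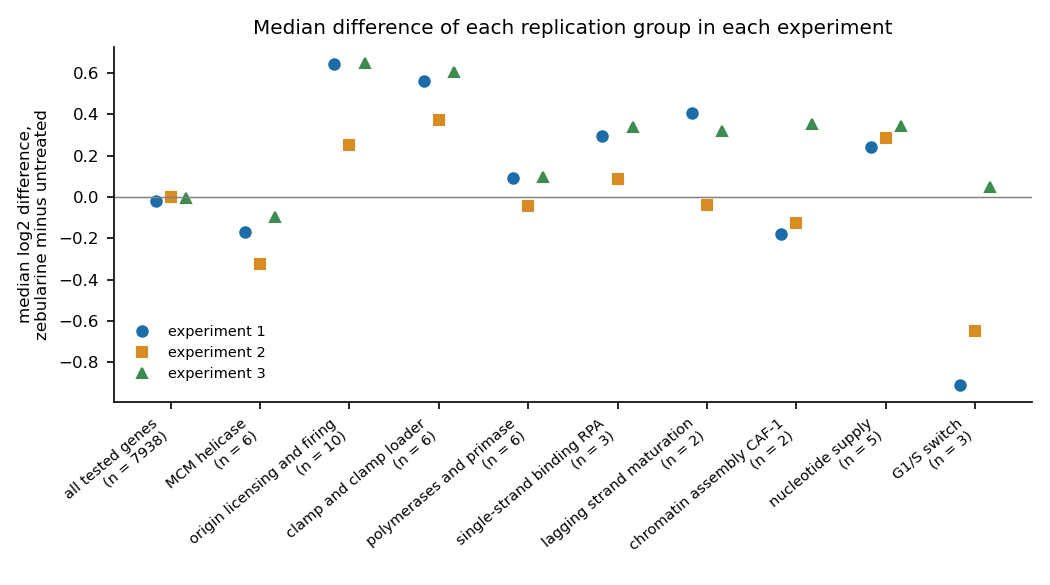
Median log2 difference (zebularine minus untreated, y axis) of each replication group and of all 7938 tested genes in experiments 1, 2 and 3, with the number of genes under each name. The clamp, origin, RPA and nucleotide supply groups lie above 0 and the MCM helicase below 0 in every experiment, and all tested genes lie close to 0.

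Polymerase and primase genes lay around 0, with a median of 0.16 over 6 genes and 1 gene higher in all 3 experiments. By experiment their median was 0.092, -0.043 and 0.098. POLD1, the catalytic subunit of polymerase delta and the brightest probe set here, had untreated signals of 437.2, 339.9 and 475.4 and treated signals of 351.1, 292.6 and 511.2. The groups overlapped, and the difference was -0.14 ± 0.29 (limma, adjusted p = 0.885). POLE2, a subunit of polymerase epsilon, was higher by 1.02 in experiment 1 and by 0.054 and 0.095 in the others. POLE, the catalytic subunit of the same enzyme, differed by -0.55, -0.099 and 0.99. POLA1, the catalytic subunit of polymerase alpha, stood at -0.074 on average, its partner POLA2 at 0.47 (0.48, -0.34 and 1.27 by experiment) and the primase gene PRIM1 at 0.20.

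RPA, the complex that coats single-stranded DNA, had means above 0 for all of its 3 genes. RPA3, with the brightest probe set of these, had untreated signals of 3024.7, 4852.7 and 4177 and treated signals of 3714.4, 5158.1 and 5532.5. It was higher within every experiment, with overlap, at 0.26 ± 0.27 (limma, adjusted p = 0.729). RPA2 had untreated signals of 283.8, 228.4 and 476.1 and treated signals of 313.4, 575.6 and 606.4, and its difference of 0.58 ± 0.34 (limma, adjusted p = 0.523) came mostly from experiment 2, at 1.27. RPA1 stood at 0.054, and its further probe set was higher by 0.50, 0.029 and 0.40 in experiments 1, 2 and 3.

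Genes for joining Okazaki fragments and for placing histones on new DNA gave no called difference. FEN1, the flap nuclease that trims Okazaki fragments, had untreated signals of 398.9, 1210.4 and 588.2 and treated signals of 602.7, 1187.4 and 904.1, at 0.39 ± 0.38 (limma, adjusted p = 0.722). At this probe set FEN1 was higher in experiments 1 and 3 and level in experiment 2. Its further probe set was higher by 0.22, 0.37 and 1.03 in experiments 1, 2 and 3. The mean there was 0.54 ± 0.37 (adjusted p = 0.588 in limma without the block and 0.243 with it). LIG1, the ligase that seals them, stood at 0.071. CHAF1A, the large subunit of the histone chaperone CAF-1, had untreated signals of 416.8, 573.1 and 358.7 and treated signals of 375.8, 563.9 and 456.6 at its brightest probe set. The difference there was 0.056 ± 0.28 (limma, adjusted p = 0.959), while its further probe sets had means of -0.41 and -0.22. The brightest probe set of CHAF1A is of the _x_ type. CHAF1B, its partner, stood at -0.027.

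Genes of nucleotide supply all had means above 0 at their brightest probe sets, with a median of 0.34 over 5 genes. By experiment the median was 0.24, 0.28 and 0.34, and DUT had further probe sets below 0. TYMS, the synthase that makes thymidylate, was the brightest, with untreated signals of 6160.5, 6617.7 and 5108.9 and treated signals of 7281.7, 9049.1 and 5169.8. It was higher in each experiment, by 0.24, 0.45 and 0.017, with overlap between the groups, at 0.24 ± 0.26 (limma, adjusted p = 0.76). RRM1, the large subunit of ribonucleotide reductase, went from 2151.3, 2533.4 and 2577.7 to 2971.8, 3090.2 and 3095 without overlap, with a log2 difference of 0.34 ± 0.23 (adjusted p = 0.58 in limma without the block and 0.303 with it). RRM1 was named after its values were seen.

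RRM2, the small subunit of the reductase, was higher in experiments 2 and 3 at its brightest probe set, by 0.63 and 0.70, and at -0.11 in experiment 1. A further probe set of RRM2, shown after its values were seen, gave untreated signals of 2164.9, 2002.4 and 1564.2 and treated signals of 2322.3, 3715.2 and 3321, without overlap, at 0.69 ± 0.26 (adjusted p = 0.297 in limma without the block and 0.0964 with it). TK1, the thymidine kinase of the salvage pathway, stood at 0.12. DUT, which removes dUTP, had 3 tested probe sets that went different ways. Its brightest, which is of the _x_ type, was at 0.34 ± 0.26 and the others at -0.30 ± 0.27 and -0.46 ± 0.35 (limma, adjusted p = 0.619, 0.69 and 0.624). The probe set at -0.46, the only one of the 3 without _s_ or _x_, was lower in every experiment.

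The 3 genes of the G1/S switch showed no shared direction. CCNE1, cyclin E1, which activates CDK2 at S-phase entry, had untreated signals of 272.9, 308.2 and 369.8 and treated signals of 137.4, 191 and 329.8. It was lower in every experiment, most in experiment 1 and least in experiment 3, at -0.57 ± 0.34 (adjusted p = 0.524 in limma without the block and 0.253 with it). CCNE2, cyclin E2, differed by -0.050, -0.77 and 1.45, and by 0.84, -0.48 and 1.26 at its dimmer further probe set. E2F1, the transcription factor, was dim, with signals from 26.3 to 228.9, and differed by -1.01, 0.52 and 0.049. Its further probe set, with signals from 54.1 to 180.6, differed by -0.94, 0.035 and -0.96.

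Several members could be read at more than 1 probe set, which shows how far a value belongs to the gene. Of 16 genes with several tested probe sets, 12 had all of them on the same side of 0 and 4 had both signs: CDC6, CHAF1A, DUT and RFC1. DUT spread most among these 4, from -0.46 to 0.34, and CHAF1A ran from -0.41 to 0.056. The 2 untested probe sets belonged to RFC1 and TYMS, with signals of 6.1 to 10.3 and 8.8 to 93.8.

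**Figure D4:**
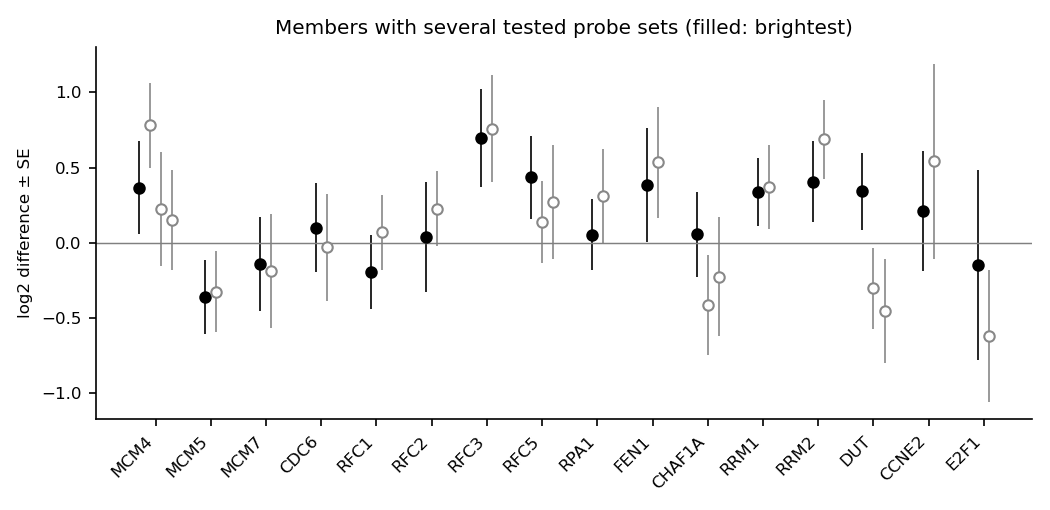
Log2 difference (zebularine minus untreated, y axis) with its standard error from limma (n = 3 a group) for every tested probe set of the 16 genes that had several, the filled symbol being the brightest. The probe sets of RFC3 and RRM1 lie together, and those of DUT lie on both sides of 0.

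Other replication genes, a list of 39 of which 32 were tested, had a median difference of 0.25, with 24 of 32 above 0. Limma called 0 of them (at an unadjusted p under 0.05 there were 2 higher and 1 lower), and with the block it called 1, lower. Over all tested genes the shares at that unadjusted p were 6.25% higher and 6.84% lower, against 6.25% of the list higher. The share called with the block was 4.45% of all tested genes against 3.13% of the list, so the calls stood no higher than the background. At an unadjusted p under 0.05 the blocked test found 8 of the list higher (25%, against 9.96% of all tested genes) and 1 lower (against 11.3%). The gene called with the block was UNG, the uracil-DNA glycosylase that removes uracil from DNA. Its untreated signals were 530.4, 699.3 and 1023.8 and its treated signals 344.1, 271.7 and 528.2. UNG was lower in each experiment, at -0.95 ± 0.32 (adjusted p = 0.249 in limma without the block and 0.0459 with it), and leaving out experiment 1, 2 or 3 ended the blocked call (adjusted p = 0.0965, 0.0892 and 0.121 in limma).

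Regulators of S-phase entry, 17 tested of 22, had a median of 0.22 with 13 of 17 above 0. None was called, and with the block 1 was, 5.88% of the list where 4.45% of all tested genes were called, a share near the background. At an unadjusted p under 0.05 there were 2 higher (11.8%, against 6.25% of all tested genes) and 0 lower (against 6.84%). With the block these were 3 higher (17.6%, against 9.96%) and 1 lower (against 11.3%). The treated array was higher in all 3 experiments for 8 regulators (47.1%, against 21.5%) and lower in all 3 for 1 (5.88%, against 22.0%). RB1, the retinoblastoma protein gene, had untreated signals of 535.9, 564.2 and 627.2 and treated signals of 1274.8, 1106.4 and 1050.2. Its treated values all lay above its untreated ones, at 0.97 ± 0.24 (adjusted p = 0.101 in limma without the block, 0.0311 with it and 0.201 with it when experiment 1 was left out), and a dim further probe set stood at 0.40 ± 0.62.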

How the data were processed

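The authors deposited an intensity on a linear scale for each probe set on each array, made with MAS5 per the submitters' processing notes (version not given in the sources used here). Its method takes off background and scales every array; leaving out the lowest and highest 2% of values, array means ran from 499.14 to 499.753. Dim signals are noisy, so values were taken as log2(signal + 16.34), the pseudocount being the median of all values divided by 8, which understates changes of dim genes. Tests ran on the 13545 of 22215 probe sets that reached 78.6, the 40th percentile, on at least 3 of 6 arrays. A gene was represented by its tested probe set with the highest mean signal.

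The 2 groups were compared two-sided in R 4.3.3 with limma 3.58.1, using eBayes with its mean-variance trend and Benjamini-Hochberg p-values adjusted over all 13545 probe sets, with a call at an adjusted p under 0.05. The fit was checked on simulated arrays. Cultures are called biological replicates by the labels, and p-values without the block cover the spread between cultures of 1 line. With the block they cover the spread of the differences within experiments. Standard errors given with log2 differences are those of the fit without the block. The replicate numbers carry a shared experiment name in the labels, and across probe sets the deviations from the group mean correlated between same-numbered arrays at 0.323, 0.21 and 0.272, so values with the experiment as a block are given where they change a call or a count.

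Array values are given for members called in either fit, for members whose 3 differences share a sign with a mean of at least 0.5, and for the brightest probe set of each complex. Array values of MCM4, MCM5, CDT1, GMNN, RRM1 and the further RRM2 probe set were added after they were seen. The members and lists were chosen with earlier results of these data known. Alternatives varied the block, the pseudocount, the filter, the scaling, the variance trend, the probe set used and the arrays left out. Promoters came from RefSeq (GRCh38.p14), and matplotlib 3.10.9 (Python 3.11.15) drew the figures.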

Additional observations from a re-analysis of the deposited data

How the results depend on the processing

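The members' median difference stayed above 0 in every alternative run, and 0 members were called under each alternative that kept all arrays and had no block. With the experiment as a replicate block limma called 572 probe sets instead of 84, 2 members and 1 other replication gene, and with quantile normalization and the replicate block 589, 2 and 1. The count over all probe sets was 55 with a smaller pseudocount (4.08), 42 without the filter and 6 without the mean-variance trend. Leaving out 1 array, or 1 experiment with the block, it ran from 0 (without zebularine 2) to 1023 (without experiment 2), that of members from 0 to 4 and that of other replication genes from 0 to 2. Leaving out 1 experiment also leaves fewer arrays. No other call on a member was changed by the block. None of the 43 members was called in the other direction. Signs of members that were not called turned in 4 of 452 values with all arrays: GINS2 at -0.0070 after median scaling, CHAF1A at -0.19 and DUT at -0.14 as means of their probe sets, and DUT at -0.46 at its probe set without _s_ or _x_. Leaving out arrays turned 52 of 387 values, in 20 genes, none of them called; the cause was not tested. Among helicase and origin genes, MCM3 ran from -0.43 to 0.10, MCM4 from -0.032 to 0.66, MCM6 from -0.70 to 0.18, MCM7 from -0.40 to 0.13, ORC1 from -0.40 to 0.67, CDC6 from -0.097 to 0.28 and GINS2 from -0.31 to 0.40. Among polymerase, primase and loader genes, POLA1 ran from -0.18 to 0.035, POLA2 from -0.036 to 1.00, POLD1 from -0.35 to 0.034, POLE from -0.33 to 0.44, PRIM1 from -0.36 to 0.55 and RFC2 from -0.37 to 0.34. Of the rest, RPA1 ran from -0.074 to 0.15, LIG1 from -0.18 to 0.24, CHAF1A from -0.087 to 0.24, CHAF1B from -0.24 to 0.25, TK1 from -0.14 to 0.42, CCNE2 from -0.41 to 0.70 and E2F1 from -0.60 to 0.66. Of 23 members whose sign no omission turned, 17 moved by over 1.5 times under at least 1 omission, 9 of them without untreated 1: there RFC3 went from 0.70 to 0.33, FEN1 from 0.39 to 0.034, RPA3 from 0.26 to 0.072 and GMNN from 0.49 to 0.24. ORC6, MCM10, CDC7, RFC4, RRM1 and MCM5 did not move that far under any omission. Having 3 arrays a group limits the precision of every value.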
